A study of Mytilus galloprovincialis with 18 samples.

Results

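The gills of mussels exposed for 48 h to 200 nM of an equimolar mixture of cadmium, copper and mercury chlorides were described from 6 of the 18 arrays of the series, all those hybridised with RNA of this dose. The 6 arrays belong to 3 adult Mediterranean mussels (Mytilus galloprovincialis) of a group of mixed sex. Each array was spotted with cDNA probes of mussel transcripts and with unrelated controls. The gill RNA of a single mussel competed there with 1 pool of gill RNA from 5 unexposed mussels. The mussel was labelled with Cy3 and the pool with Cy5 on array A, and the dyes were exchanged on array B. Values are log2 ratios of mussel over pool, averaged over the 2 spots of a probe and over arrays A and B, so that 0 means the level of the pool and 1 a doubling. The 3 mussels lived in 1 tank and the controls in another, and tank and dose cannot be told apart. The pool is 1 control sample, so a test of the ratio against 0 does not hold the variation among unexposed animals. All 1920 probes were tested with limma on the 9 mussels of the series, 3 at each of 50, 100 and 200 nM, with the Benjamini-Hochberg adjustment over the whole array. A probe is said to have risen or fallen, and is called, at an adjusted p under 0.05.

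The mussel gill is a sheet of filaments covered by ciliated epithelium, which drives water for feeding and gas exchange, so its cells meet dissolved metals first. Cadmium and mercury bind the thiol groups of proteins and copper also drives redox reactions. Cells are known to answer misfolded and oxidised proteins with chaperones, ubiquitin and the proteasome, and free metal ions with metallothionein, a small protein rich in cysteine.

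On the 6 arrays, 99.7 to 100% of the spots in the mussel channel and 99.6 to 100% of those in the pool channel lay more than 2 SD above local background, and 1 to 24 and 3 to 49 spots were saturated. In all, 1914 of the 1920 probes were measured above background by both spots of at least 1 channel on each array. Nearly every probe passed this mark. The study counts fewer mussel probes on the array than 1920, and the other entries, such as unrelated controls, were not told apart here. Passing the mark therefore does not show that a transcript is present or typical of gill. These entries also enter the shares over all probes. Descriptions, taken as names here, were available for 434 probes, those in the study's own tables, which were selected for change on these samples. Counts over named groups are thus only descriptive. Of the 434, 172 have no similarity to known proteins, and none of these is in a group. Of all 1920 probes, 21.2% were above and 21.2% below 0 in each of the 3 mussels, and 9.06% had an unadjusted p under 0.05 in the higher and 9.01% in the lower direction. Of the 434 named probes, from which the groups are drawn, 194 were above and 156 below 0 in each mussel, and 145 and 128 had such a p. The counts of each group are to be read against both.

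At 200 nM, 39 of the 1920 probes (2.03%) were called, 17 higher (0.885%) and 22 lower (1.15%). The higher ones include sequestosome-1 (SQSTM1), small HSP24.1, HSP70 and HSP90, which serve protein quality control, RNA-binding protein 8A and 7 probes without similarity to known proteins. By the study's descriptions the lower ones include the calcium sensor calmodulin, a C1q domain protein, a zona pellucida domain protein and a mitochondrial transcript. The changes upward were larger, with a median size of 1.06 on the log2 scale and a range of 0.57 to 4.82, against a median of 0.68 and a range of 0.53 to 1.72 for the probes that fell. Of the 28 probes past a 2-fold change, 21 were higher and 9 of these called, and 7 were lower and 2 of these called. The same sign in all 3 mussels was found for 39 of the 39 called probes and for 42.4% of all probes. The same sign on all 6 arrays was found for 37 of the 39 and for 17.7% of all probes. The calls were made on these same values, so a shared sign follows largely from the selection and does not add to them. Without adjustment, 347 probes (18.1%) had a p under 0.05. The calls need all 3 mussels, since limma left none without mussel 1 or mussel 3 and small HSP24.1 alone without mussel 2. With median centring in place of loess 16 probes were higher and 4 lower, and with a pool's sampling error among 5 mussels included none passed, with 208 at an unadjusted p under 0.05.

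**Figure D1:**
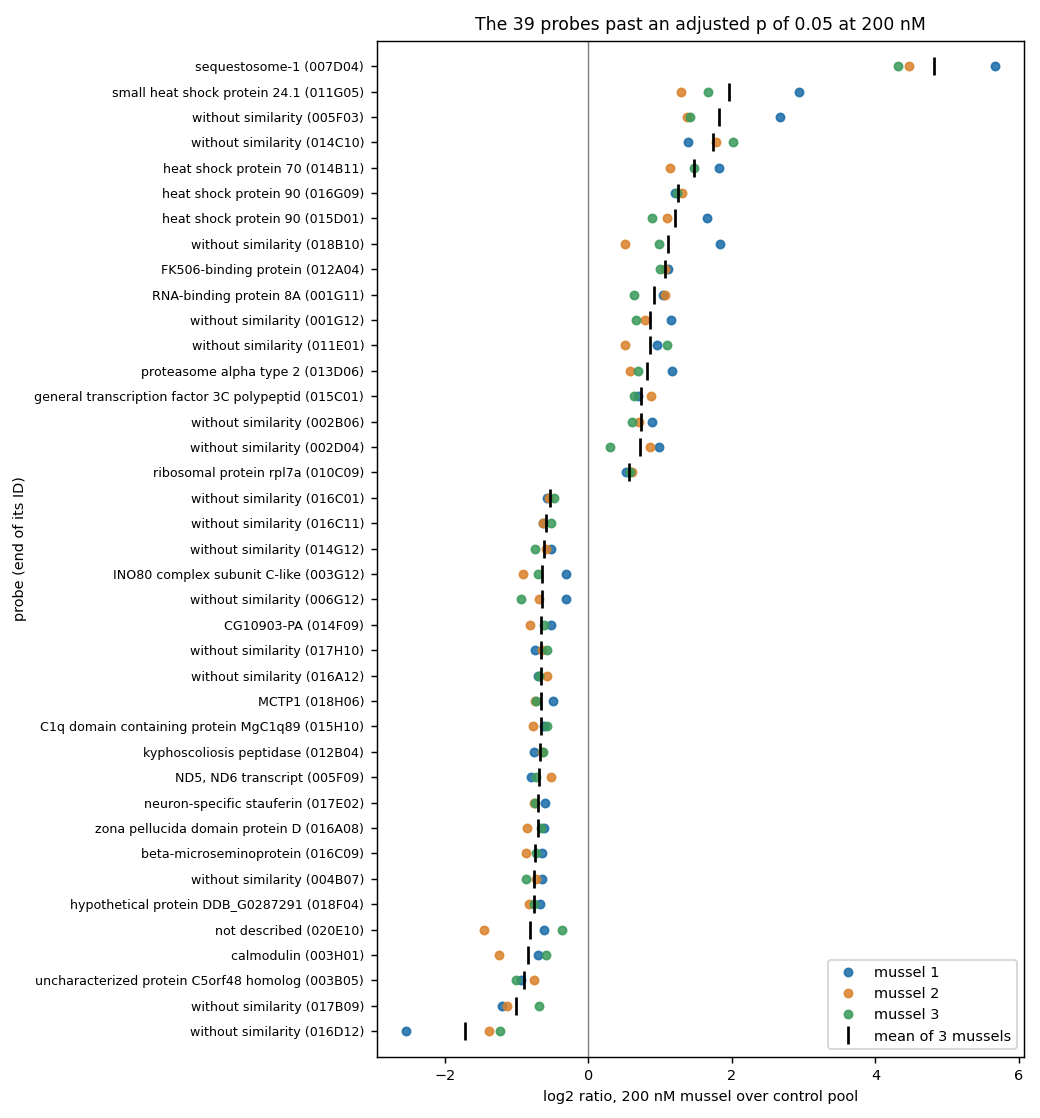
Log2 ratio of each 200 nM mussel over the control pool (horizontal axis) for the 39 called probes (vertical axis, with the end of the probe ID), with a dot per mussel and a black bar for the mean. No dot of a called probe lies on the other side of 0, SQSTM1 stands apart at 4.32 to 5.67, and the 22 lower probes except Myt01-016D12 have means between -1.01 and -0.53.

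SQSTM1 (Myt01-007D04), the receptor that collects ubiquitinated proteins for autophagy, had a log2 ratio of 5.67 in mussel 1, 4.47 in mussel 2 and 4.32 in mussel 3. Its mean of 4.82 was a 28.2-fold rise (SE 0.87, adjusted p = 0.0360 from limma) and the highest of all 1920 probes. The arrays of a mussel gave close values, 5.93 and 5.40 in mussel 1, 4.48 and 4.45 in mussel 2, and 4.16 and 4.48 in mussel 3. Both spots were saturated in the mussel channel of array B of mussel 1, the lower of that animal's pair, so this ratio is a lower bound. No other called probe had a saturated spot. The signal above background in the mussel channel ran from 7536 to 65379 over the 6 arrays, and in the pool channel from 498 to 1774. Without background subtraction the mean was 4.21, and in the processed values of the authors 4.42.

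Small HSP24.1 (Myt01-011G05), which holds unfolded proteins in solution, had 2.93, 1.29 and 1.67 in the 3 mussels. Its mean of 1.96 was a 3.90-fold rise (SE 0.28, adjusted p = 0.0226 from limma). A second probe of the same name (Myt01-013C12) had 2.49, 1.44 and 0.95, with a mean of 1.63, and did not pass (adjusted p = 0.0744). Mussel 1 was the highest of the 3 on both probes. HSP70 (Myt01-014B11), the chaperone that refolds damaged proteins, had 1.82, 1.14 and 1.48 and rose 2.79-fold (adjusted p = 0.0226). HSP90 is known to keep signalling proteins in an active shape. Its probe Myt01-016G09 had nearly equal values in the 3 mussels, 1.20, 1.31 and 1.24, and rose 2.38-fold (SE 0.19, adjusted p = 0.0247). The other HSP90 probe (Myt01-015D01) had 1.66, 1.09 and 0.89 and rose 2.32-fold (adjusted p = 0.0372). FK506-binding protein (Myt01-012A04), which turns proline bonds during folding, had 1.12, 1.07 and 1.00 and rose 2.09-fold (adjusted p = 0.0372).

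The group of 11 heat shock proteins, chaperones and folding enzymes had 5 probes that rose and none that fell. Its median was 1.21, against 0.16 over the 434 named probes and -0.02 over all 1920. All 11 had a mean above 0, from 0.17 to 1.96, and 10 were above 0 in each mussel, which 21.2% of all probes were. The members that did not pass include both constitutive HSP70 relatives: heat shock cognate 70 (Myt01-010B03) had 1.78, 0.91 and 1.10 (adjusted p = 0.0519), and heat shock cognate 71 (Myt01-007E01) had 1.08, 0.44 and 0.27 (adjusted p = 0.216). Chaperonin subunit 7 (Myt01-014B06), of the ring in which actin and tubulin fold, had 1.26, 1.00 and 0.64 (adjusted p = 0.0671). The lowest values belonged to the cyclophilins, which also act on proline bonds, with means of 0.17 and 0.27.

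The proteasome, the protease that takes up ubiquitinated proteins, was represented by 10 probes with a median of 0.47. Proteasome alpha type 2 (Myt01-013D06), a subunit of its core, had 1.17, 0.58 and 0.70 and rose 1.76-fold (adjusted p = 0.0372 from limma). It was the only one of the 10 to pass, and 7 had an unadjusted p under 0.05 in the higher direction, which 9.06% of all probes had. Subunits of the regulatory cap had the largest means, with 1.73, 0.92 and 0.29 for non-ATPase subunit 1 (Myt01-003G03, adjusted p = 0.151) and 1.10, 0.64 and 0.81 for non-ATPase subunit 2 (Myt01-007D11, adjusted p = 0.0831). Beta type 1 (Myt01-002G08) was below 0 in each mussel, with a mean of -0.32 (adjusted p = 0.313). Beside SQSTM1 the ubiquitin group held 3 probes, and none of these passed. Polyubiquitin (Myt01-006B11), the precursor of several ubiquitin units, had 2.00 in mussel 1 but 0.36 and 0.65 in the others (adjusted p = 0.102). The ubiquitin probe Myt01-015G01 had 1.02, 0.16 and 0.71 (adjusted p = 0.0766), and the ubiquitin fusion with ribosomal protein L40A (Myt01-013G06) had 0.49, 0.07 and 0.40 (adjusted p = 0.255).

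Of the 7 probes of metal binding and antioxidant proteins none passed in limma, and 4 had an unadjusted p under 0.05, all higher. Metallothionein 10B (Myt01-016C08), which chelates cadmium, copper and mercury, had 2.48, 0.59 and 1.93, a mean of 1.67 or 3.17-fold (SE 0.40, adjusted p = 0.0529). The value of mussel 2 was repeated on its arrays, 0.65 and 0.52, and so was that of mussel 1, 2.30 and 2.66. GSTpi1 (Myt01-010C12), which couples glutathione to reactive compounds, had 2.54, 2.12 and 1.55, a mean of 2.07 or 4.20-fold, the second highest of all probes (adjusted p = 0.0556). It was well above 0 on each of the 6 arrays, from 1.01 to 2.89, but its arrays A were lower than its arrays B in all 3 mussels. Ferritin (Myt01-013D11), the iron store, had 1.31, 0.68 and 0.66 (adjusted p = 0.0905). Selenide, water dikinase (Myt01-017B01), which makes the selenium donor for selenoproteins, had a mean of 0.45, thioredoxin (Myt01-006E07), a disulphide reductase, 0.34, and microsomal GST3 (Myt01-012G04) 0.48 with 1.06 in mussel 1 and 0.07 in mussel 2. Selenium-binding protein (Myt01-013B09) was below 0 in each mussel, with -0.12, -0.38 and -0.32 (adjusted p = 0.458). Membrane exporters, which pump conjugates and drugs out of cells, did not pass either, with -0.44, -0.42 and -0.37 for the multidrug resistance protein MRP (Myt01-010D05, adjusted p = 0.155) and means of -0.36 and 0.12 for the ABCB probes Myt01-004E12 and Myt01-018G06.

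Transcripts of translation were mostly higher by a small amount. Of 35 ribosomal protein probes, 31 were above 0 and 2 below 0 in each mussel, with a median of 0.34, where 194 and 156 of the 434 named probes and 21.2% of all probes each way were. The only one to rise, rpl7a (Myt01-010C09) of the large subunit, had 0.53, 0.60 and 0.58, a 1.49-fold change (SE 0.12, adjusted p = 0.0406 from limma), with an SD between mussels of 0.04. In all, 24 had an unadjusted p under 0.05 in the higher direction and 2 in the lower, against 145 and 128 of the named probes, and the means ran from -0.44 for S24 (Myt01-017F04) to 0.75 for rps27 (Myt01-014G01). Of 12 translation factors none passed, 8 had an unadjusted p under 0.05, all higher, and the median was 0.46. Elongation factor 1 alpha, which brings aminoacyl-tRNA to the ribosome, had means of 0.71, 0.68 and 0.64 on its 3 probes, the second of which (Myt01-011G02) had 3 saturated spots in the mussel channel and is not exact, and the helicase eIF4A-II (Myt01-015F03), which opens the start of mRNAs, had 1.19, 0.72 and 1.03 (adjusted p = 0.0715).

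The 11 probes of splicing and RNA-binding proteins were above 0 in each mussel without exception, with a median of 0.46. RNA-binding protein 8A (Myt01-001G11), of the complex left on mRNA at spliced junctions, had 1.04, 1.07 and 0.63 and rose 1.88-fold (SE 0.16, adjusted p = 0.0285 from limma). The spliceosomal protein B (Myt01-002A11) had 0.79, 0.81 and 0.69 (adjusted p = 0.0503). A subunit of the factor that recruits RNA polymerase III to tRNA genes, general transcription factor 3C polypeptide 1 (Myt01-015C01), had 0.69, 0.88 and 0.63 and rose 1.66-fold (adjusted p = 0.0425). The 8 probes of secretion and vesicle traffic had a median of 0.52 with 7 above 0 in each mussel, 5 with an unadjusted p under 0.05 and none past the adjusted threshold. ADP-ribosylation factor 2 (Myt01-001H12), which starts coat assembly on vesicles, had 1.44, 0.54 and 0.62 (adjusted p = 0.104), and GDP dissociation inhibitor 2 (Myt01-008C11), which recycles Rab proteins, had 1.05, 0.70 and 0.26 (adjusted p = 0.0715).

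**Figure D2:**
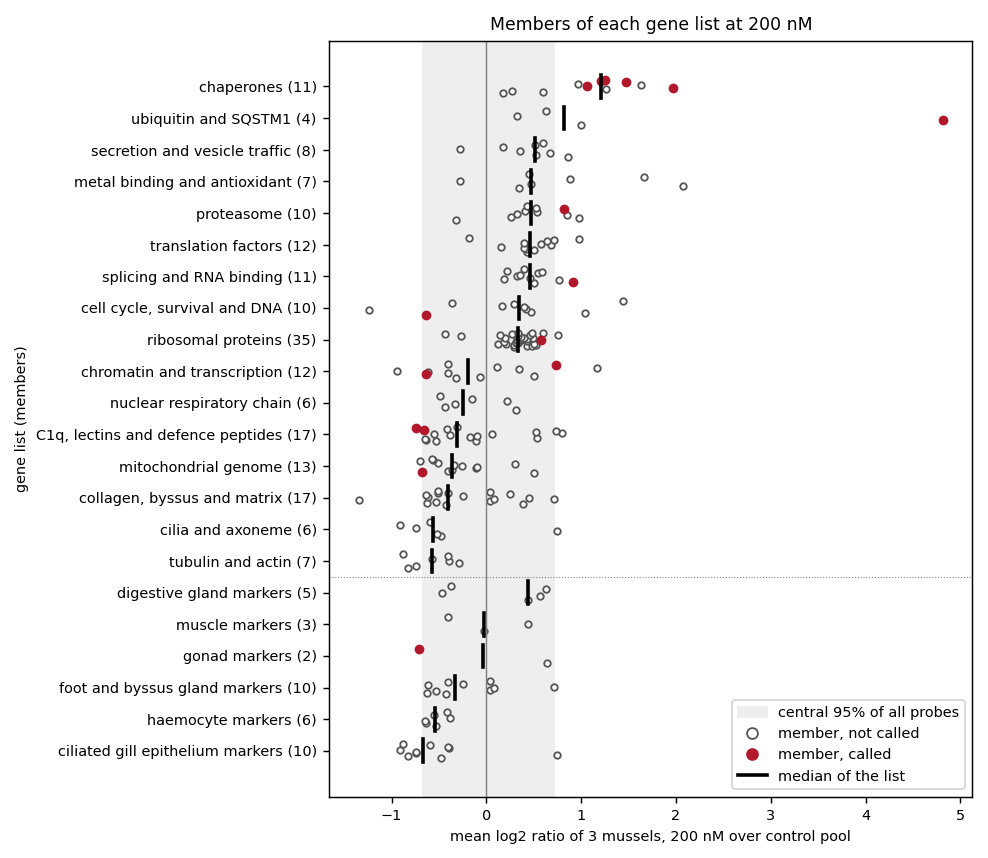
Mean log2 ratio of the 3 mussels over the pool (horizontal axis) for the members of each gene list (vertical axis, with the number of members), called members in red, list medians as black bars, and the central 95% of all probes, -0.67 to 0.71, shaded. The medians run from -0.67 for markers of ciliated epithelium to 1.21 for chaperones, and most members of most lists lie inside the shaded band.

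The probes that fell did so by less and with less spread. The SD between mussels had a median of 0.12 over the 22 that fell and 0.31 over the 17 that rose. A smaller change passes the test only with a smaller spread, so these medians follow in part from the threshold. Of the 22, 18 were among the brightest 480 of the 1920 probes by pool signal, as were 7 of the 17. Pool signal is also the denominator of the ratio, so these counts are not independent of the direction of change. The probe described as calmodulin (Myt01-003H01), the cytoplasmic calcium sensor, had -0.70, -1.24 and -0.59 and fell 1.79-fold (SE 0.17, adjusted p = 0.0372 from limma). The study names it by its best match, a calmodulin of Porphyra yezoensis, and files it under cell adhesion and extracellular matrix. The probe was dim, with 151 to 770 above background in the mussel channel and 342 to 982 in the pool channel. Without background subtraction the mean of calmodulin was -0.39 and its call was lost, and in the processed values of the authors the mean was -0.52. Beta-microseminoprotein (Myt01-016C09), a small secreted protein known from mammals, had -0.64, -0.87 and -0.73 and fell 1.68-fold (adjusted p = 0.0247). The zona pellucida domain protein D (Myt01-016A08), of a family that forms extracellular coats, had -0.61, -0.85 and -0.66 (adjusted p = 0.0406). MgC1q89 (Myt01-015H10), one of the many mussel proteins with the C1q domain of complement, had -0.61, -0.77 and -0.58 (adjusted p = 0.0422). The transcript with ND5, ND6 and cytochrome b (Myt01-005F09) had -0.80, -0.53 and -0.72 (adjusted p = 0.0422). These 5 were below 0 on all 6 arrays.

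Of the other called probes with a name, the INO80 complex subunit (Myt01-003G12), which moves nucleosomes, had the lowest value in mussel 2 and the weakest in mussel 1, with -0.31, -0.91 and -0.70, and its adjusted p of 0.0493 was the highest of the 39. Kyphoscoliosis peptidase (Myt01-012B04), a protease of muscle in mammals, had a mean of -0.68, MCTP1 (Myt01-018H06), a membrane protein with calcium-binding C2 domains, -0.65, the homologue of C5orf48 (Myt01-003B05) -0.90, neuron-specific stauferin (Myt01-017E02) -0.70, the protein like DDB_G0287291 (Myt01-018F04) -0.76 and that like CG10903-PA (Myt01-014F09) -0.65. Their adjusted p values were 0.0372 to 0.0447. The means of the 3 mussels lay close together in each of these 6, with an SD of 0.07 to 0.15. The arrays of a mussel could differ by more. Myt01-003B05 had -1.47 on array A and -0.40 on array B of mussel 1, and -0.34 and -1.67 in mussel 3. Without background subtraction its mean was -0.47.

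Probes without any similarity made up 7 of the 17 that rose and 9 of the 22 that fell, a share like that among the named probes, 172 of 434. The largest rise among them was that of Myt01-005F03, with 2.67, 1.38 and 1.42 and a mean of 1.82 (adjusted p = 0.0372 from limma). Myt01-014C10 had 1.39, 1.78 and 2.02 and a mean of 1.73 (adjusted p = 0.0285), and here mussel 1 was the lowest of the 3. Myt01-018B10 had 1.83, 0.51 and 0.99, and Myt01-001G12 and Myt01-011E01 had means of 0.86 each. The largest fall of all called probes was that of Myt01-016D12, 3.29-fold, with -2.54, -1.39 and -1.23 (SE 0.27, adjusted p = 0.0247). Myt01-017B09 followed with -1.20, -1.13 and -0.69, then Myt01-004B07, Myt01-016A12 and Myt01-017H10 with means of -0.75, -0.65 and -0.65. The 37 called probes whose arrays all had 1 sign leave 2 others. Myt01-002D04 had 1.64 on array A and 0.33 on array B of mussel 1 and -0.15 on array A of mussel 3. Myt01-020E10, which has no entry in the study's tables, had -3.03 on array B of mussel 2 and 0.11 on its array A, and -0.72 to -0.22 on the other 4 arrays, so that 1 array set its size.

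**Figure D3:**
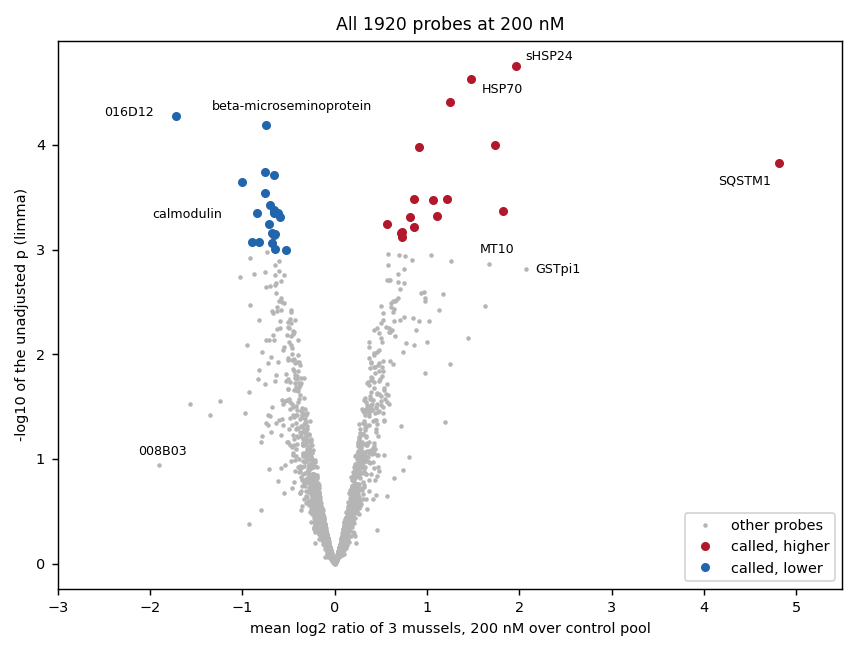
Mean log2 ratio of the 3 mussels over the pool (horizontal axis) against -log10 of the unadjusted limma p (vertical axis) for the 1920 probes, with called probes in red (higher) and blue (lower). The 9 called probes past a doubling lie to the right, the called lower probes except Myt01-016D12 lie between -1.01 and -0.53, and GSTpi1 and Myt01-008B03 have large ratios without passing.

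Transcripts of cilia and of the cytoskeleton were mostly below the pool, and none passed in limma. All 7 tubulin and actin probes were below 0 in each mussel, which 21.2% of all probes were, with a median of -0.57 and an unadjusted p under 0.05 for 6, a share of 9.01% among all probes. Beta tubulin (Myt01-003E07) had -0.49, -1.21 and -0.77 (adjusted p = 0.0831), a tubulin polymerization-promoting protein (Myt01-018F07) -0.85, -1.13 and -0.66 (adjusted p = 0.0574), and actin (Myt01-015H12) -0.16, -0.78 and -0.77 (adjusted p = 0.251). Mussel 1 was nearest to 0 in 6 of the 7. Of 6 axonemal probes 5 were below 0 in each mussel. Radial spokehead (Myt01-010G08), of the spokes inside the axoneme, had -0.90, -0.60 and -0.71 (adjusted p = 0.0503). The exception was a probe of the dynein light chain p33 of ciliary motors. Myt01-006E09 of that name had 0.77, 0.68 and 0.80 (adjusted p = 0.0556), whereas Myt01-011H07 of the same name had -0.74, -1.28 and -0.72 (adjusted p = 0.0519). They belong to different sequence clusters, and each had the same sign on all 6 arrays. Axonemal and tubulin probes were also taken as markers of ciliated gill epithelium, and 9 of these 10 were below 0 in each mussel, with a list mean of -0.40, -0.72 and -0.45 in mussels 1, 2 and 3. Fewer ciliated cells and less of these transcripts per cell cannot be told apart in RNA of whole gill.

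Markers of other cells of the gill preparation moved as follows. The 6 haemocyte markers were below 0 in each mussel, with a median of -0.54, means of the list of -0.51, -0.60 and -0.48, and none called. Macrophage expressed protein (Myt01-006G09), a pore-forming protein of phagocytes, had -1.07, -0.37 and -0.50 (adjusted p = 0.0529), and the antimicrobial peptide mytimacin-4 (Myt01-014E06) -0.49, -0.49 and -0.67 (adjusted p = 0.0574). The part of haemocyte number in the values of the immune probes was not tested. Among 17 C1q proteins, lectins and defence peptides, which hold all 6 haemocyte markers, 9 were below and 2 above 0 in each mussel and 2 fell, MgC1q89 and beta-microseminoprotein. This group differed between mussels, with MgC1q8 (Myt01-015F11) at 1.29, -0.21 and 1.13 and the lectin incilarin A (Myt01-015B09) at 1.60, 1.30 and -0.49. The 3 muscle markers had -0.40, -0.02 and 0.44, and the direction of their median changed with the scaling. The digestive gland markers were split, with 3 above 0 and 2 below 0 in each mussel, and so were the 2 gonad markers, at 0.64 for a testis-specific kinase (Myt01-001G09) and -0.71 for the zona pellucida domain protein.

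Collagens and byssus proteins, the substance of the attachment threads, were also split. Of 17 probes, 8 were below and 4 above 0 in each mussel, none passed in limma, and the median was -0.41, where 8 lower and 2 higher had an unadjusted p under 0.05. A collagen pro alpha-chain (Myt01-014E05) had -0.16, -0.97 and -0.76 (adjusted p = 0.0671), and precollagen-NG (Myt01-006A11) -0.26, -0.87 and -0.76 (adjusted p = 0.0905), with 2 saturated spots in the pool channel. Precollagen-D, of the stiff far end of the threads, was at -0.41 on Myt01-015G12 and at 0.71 on Myt01-011H08. Probes of 1 name thus differed in sign here too. Of 10 foot and byssus gland markers, 5 were below and 1 above 0 in each mussel, with a median of -0.33. Of the 13 probes of the mitochondrial genome 7 were below and 2 above 0 in each mussel, against 156 and 194 of the 434 named probes. Cytochrome c oxidase subunits I and II (Myt01-019B06 and Myt01-019B11) had means of -0.51 and -0.56, the latter with 2 saturated pool spots, while NADH dehydrogenase subunit 1 (Myt01-019B05) had 0.08, 0.39 and 0.42, and a probe of subunit III of the oxidase (Myt01-004F10) 0.13, 0.81 and 0.56. Nuclear genes of the respiratory chain had a median of -0.24 over 6 probes.

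Among transcripts of survival and growth arrest, GADD45 gamma (Myt01-006C05), which is induced by DNA damage and slows the cycle, had 1.71, 0.52 and 0.90 and lay just outside the threshold (adjusted p = 0.0503). DAD1 (Myt01-017B11), a subunit of the enzyme that glycosylates proteins in the endoplasmic reticulum, had 1.80, 0.80 and 1.71 (adjusted p = 0.0980). Its paired arrays were 1.92 and 1.68, 0.79 and 0.81, and 1.76 and 1.66, so the lower value of mussel 2 was seen with both dyes. The stress protein p8 (Myt01-011C02), a small nuclear regulator, had 0.75, 1.43 and 1.33 (adjusted p = 0.0685). Inhibitor of apoptosis 1 (Myt01-007H08), which blocks caspases in other animals, was lower in each mussel, with -0.93, -1.84 and -0.96 (adjusted p = 0.210). PCNA (Myt01-016A01), the clamp of replication, had -0.29, -0.52 and -0.28 (adjusted p = 0.167). A protein of histone deacetylation (Myt01-009G02, Rxt3) had -1.18, -0.90 and -0.76 (adjusted p = 0.104), and 6 of 12 chromatin and transcription probes were below 0 in each mussel and 3 above, where 156 and 194 of the 434 named probes were, so nothing particular to them is read from this count.

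The 3 mussels differed from each other by a pattern that ran through whole groups. Mussel 1 had the highest ratio of the 3 on 10 of the 11 chaperone probes, 8 of the 10 proteasome probes, 4 of the 4 of ubiquitin and SQSTM1 and 7 of the 7 of metal binding and antioxidant proteins, against 687 of all 1920 (35.8%). Its mean over the chaperone list was 1.48, against 0.87 and 0.88 in mussels 2 and 3. In the ribosomal list mussel 3 was highest, on 21 of 35 probes, and on 8 of 12 translation factors, while mussel 2 was highest on 8 of 11 splicing and RNA-binding probes. Ratios over all probes had an SD of 0.49, 0.43 and 0.41 in mussels 1, 2 and 3. The probes of a list were measured on the same arrays, so they do not count as independent evidence of a difference between animals.

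Several probes differed between mussels by far more than between the arrays of a mussel. They include 3 probes picked after their values were seen, for their SD between mussels. Myt01-005H11, without similarity, had -2.76 and -3.16 on the arrays of mussel 1, 2.50 and 2.42 on those of mussel 2 and -2.26 and -2.31 on those of mussel 3, the largest SD of all probes, 2.95. Myt01-014H11 had 0.95 and 1.17, -1.48 and -1.35, and 1.59 and 1.85, and Myt01-007A09 had 2.79 and 2.20 in mussel 1 and -0.48 to -0.02 on the other 4 arrays. In all 3 the dyes did not matter for which animal stood apart. Type XII collagen (Myt01-010B10), a collagen that binds to fibrils, had -2.98 and -3.19 in mussel 1, 0.17 and 0.05 in mussel 2 and -1.01 and -1.13 in mussel 3, so that its mean of -1.35, among the 5 lowest, did not pass (adjusted p = 0.236). Myt01-002C11 had -3.02 and -2.98 in mussel 2 but -0.38 and 0.11 in mussel 1. By contrast Myt01-008B03, with the lowest mean of all probes, -1.90, was low in each animal, at -2.28, -1.25 and -2.17 (adjusted p = 0.419), where the spread of the other doses enters the test.

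Sequence clusters were known here only for probes in the study's tables. Among those probes, 13 pairs have both members from the same cluster. In 12 of the 13 pairs the means had the same sign, in 11 pairs in each mussel, and they differed by a median of 0.10. Both members of a pair had been selected for change on these samples, so agreement in sign is partly built in. The share of agreement among probes of different clusters was not determined, so these counts are only descriptive. The difference between animals was repeated as well in MGC00206, where Myt01-007D06 had -1.73, -1.23 and 0.18 and Myt01-012D04 had -1.90, -1.08 and 0.05. The ribosomal protein L8 probes (MGC00146) had means of 0.33 and 0.37, and the elongation factor 1 alpha probe Myt01-014A02 and its partner without similarity 0.64 and 0.66. The pair that disagreed was MGC02425, with 0.46 on Myt01-005F12 and -0.44 on Myt01-006D12, opposite in each mussel.

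The called probes had the same sign in the mean of arrays A and in that of arrays B. They were called on the mean of both, so this follows largely from the selection. Tested alone in limma, arrays A gave 0 calls and arrays B gave 3. Over all probes the paired arrays of mussels 1, 2 and 3 correlated at 0.48, 0.43 and 0.29, arrays of different mussels at 0.30 to 0.51 in the same orientation and at 0.21 to 0.33 in the other one, and the means of mussels at 0.43 to 0.52. These are correlations across probes, given as a description, and arrays of 1 orientation share the dye of the pool. The difference between array A and array B had an SD over probes of 0.54 to 0.61 in the 3 mussels, as large as or larger than that of their mean. Some extreme values stood on 1 array alone: Myt01-011D03 had -5.13 on array B of mussel 3 and -0.46 to 0.49 on the other 5, and Myt01-020E02 had -4.59 on array B of mussel 2 and -0.17 to 0.11 on the other 5. Neither was called, and both were picked after their values were seen.

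**Figure D4:**
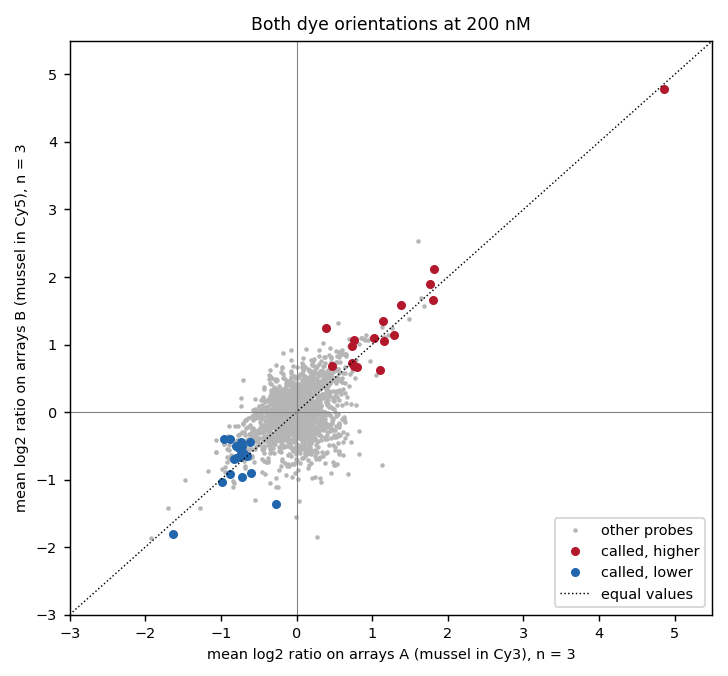
Mean log2 ratio of the 3 mussels on arrays A (horizontal axis, mussel in Cy3) against that on arrays B (vertical axis, mussel in Cy5) for the 1920 probes, with called probes coloured and a dotted line of equal values. SQSTM1 lies near the line at 4.86 and 4.78, and the called probes lie in the quadrants where both orientations have 1 sign. They were called on the mean of both orientations, so their place there is largely set by the selection.

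The doses were compared within the same fit, where the pool cancels. Between 200 and 100 nM no probe passed in limma, the smallest adjusted p was 0.630, and 113 probes (5.89%) had an unadjusted p under 0.05, 64 higher (3.33%) and 49 lower (2.55%) at 200 nM. Between 200 and 50 nM no probe passed either, the smallest adjusted p was 0.304, and 195 (10.2%) had such a p, 96 higher (5%) and 99 lower (5.16%). The differences below are therefore values, none of which holds up after adjustment. Against 100 nM the smallest p was that of Myt01-015H01, without similarity, with a difference of 1.26 (SE 0.25, adjusted p = 0.630). Its values were -0.75, -0.95 and -0.31 at 100 nM and 0.90, 0.22 and 0.65 at 200 nM. The ubiquitin probe Myt01-015G01 had -0.69, -0.20 and -0.42 at 100 nM and 1.02, 0.16 and 0.71 at 200 nM. The difference was 1.07 (SE 0.25, adjusted p = 0.794 from limma). Precollagen-P (Myt01-003F09), of the elastic near end of the byssal threads, had 0.33, 0.05 and 0.25 at 100 nM and -0.46, -0.32 and -0.49 at 200 nM, a difference of -0.63 (SE 0.17, adjusted p = 0.794).

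Against 50 nM, HSP70 (Myt01-014B11) differed by 1.32 (SE 0.31, limma, adjusted p = 0.304), and the 50 nM mussels had 0.72, 0.29 and -0.55. Myt01-016D12 differed by -2.07 (SE 0.39, adjusted p = 0.304), with 0.03, -0.18 and 1.20 at 50 nM. SQSTM1 had 4.32, 1.54 and -2.43 at 50 nM and 2.90, 4.36 and 3.76 at 100 nM. Mussel 3 of the 50 nM tank had the opposite sign to its tank mates on both HSP70 and SQSTM1. The same held for GSTpi1 (1.95, 0.27 and -1.60), inhibitor of apoptosis 1 (-1.80, -1.99 and 1.42) and Myt01-008B03 (-3.72, -2.78 and 4.48). It did not hold for small HSP24.1 (Myt01-011G05), which had 0.89, 0.53 and 0.69 at 50 nM. Probes of either kind were not counted. Whether the channels of this mussel are exchanged is not settled. That question touches each comparison with 50 nM and the shared spread in the tests at 200 nM. The list medians at 50, 100 and 200 nM were 0.38, 0.58 and 1.21 for chaperones, -0.10, 0.08 and 0.34 for ribosomal proteins, 0.04, -0.24 and -0.56 for cilia and axoneme, and -0.24, -0.57 and -0.57 for tubulin and actin. The 3 doses share the pool, so these rows of values are not independent. Between 200 and 50 nM, 22 of the 35 ribosomal probes had an unadjusted p under 0.05, all higher at 200 nM, and between 200 and 100 nM 8 did, all higher, where 5% and 3.33% of all probes did. Of the 11 chaperone probes 5 and 4 did. All lists hold only probes that the study selected for change on these samples, 369 of the 434 at 200 nM. A difference between 200 nM and the other doses is therefore partly built into them. These counts are descriptions, and the shares among the named probes are not given here. For tubulin and actin the median difference between 200 and 100 nM was 0.11, with 0 of 7 probes at an unadjusted p under 0.05.

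**Figure D5:**
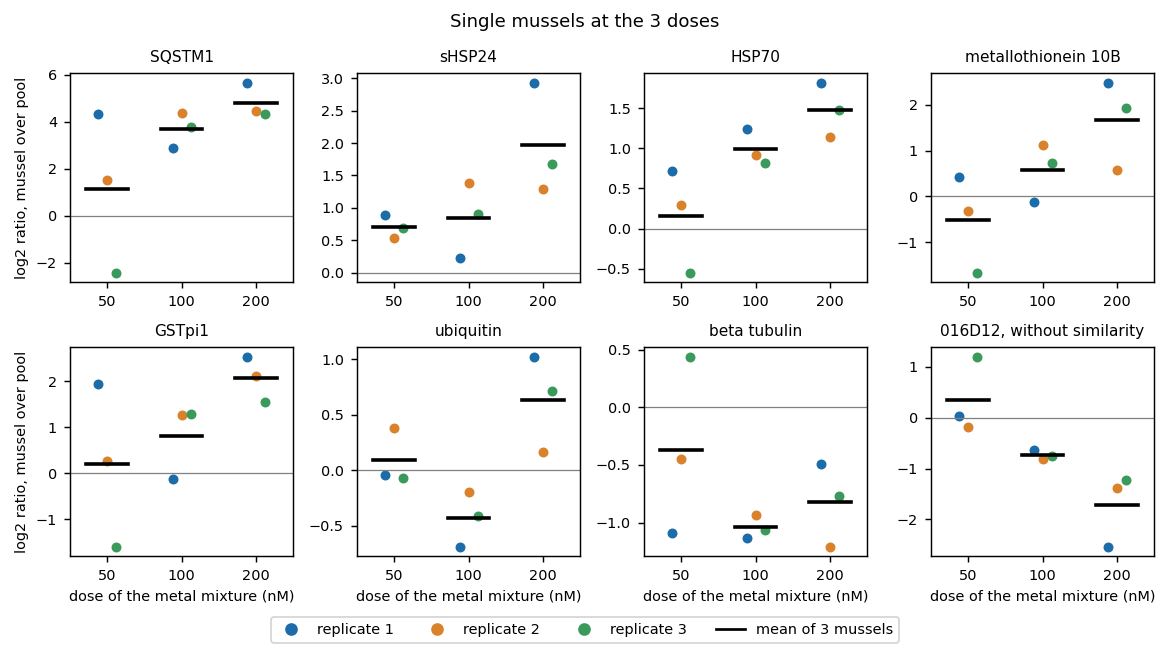
Log2 ratio over the pool (vertical axis) of each mussel at 50, 100 and 200 nM of the mixture (horizontal axis) for 8 probes, with a dot per mussel and a black line for the mean of 3. SQSTM1, small HSP24.1 and HSP70 have their highest mean at 200 nM, Myt01-016D12 its lowest, and beta tubulin is below 0 in each mussel at 200 nM. The spread at 50 nM is wide for several probes.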

How the data were processed

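Gill RNA of 3 mussels at 200 nM was measured on 6 arrays against 1 control pool, and the 3 mussels at each of the other doses entered the fit. The authors scanned the arrays on a GSI Lumonics reader with ScanArray Express, and the deposited files from the scanner hold the intensity of each spot in each channel with its local background, before subtraction. The deposited table of log2 ratios was normalized by the authors for total intensity and by LOWESS in MIDAS and was used as an alternative, with correlations of 0.921 to 0.954 to the values computed here on the 6 arrays. The authors tested ratios against 0 with SAM.

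Here background was corrected by normexp (offset 50). The first channel of each scanner file was taken as the pool and the second as the mussel, on arrays A and B alike. Ratios of mussel over pool were normalized by loess within arrays (span 0.3, 4 iterations), and spots, then arrays, were averaged. The 9 mussels were fitted with a mean for each dose in limma 3.58.1 (R 4.3.3). The threshold was an adjusted p of 0.05 over 1920 probes. A random block used statmod 1.5.0 and tables Python 3.11.15. Background correction, fit and SAM were tested on simulated data in which the changes were known.

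The probes named are those called, the 5 largest means in each direction, list members with the lowest p, the 3 lowest p per dose difference, pairs of 1 cluster, and transcripts the study names for metal response. Exporters and the probes said to be picked after their values were seen fall outside this rule, as do further list members given to show a range. The probes described and the gene lists were chosen with earlier results of these data known. Names come from the study's tables, which describe 434 probes by best sequence match, often in another species, and 172 of them as without similarity. No sequences were used here. The alternatives were other background corrections and normalizations, the deposited ratios, a filter on dim probes, 200 nM alone, each mussel left out, either dye orientation, the array as unit with mussel as a random block, a replicate block, one-class SAM, the sign of 50 nM replicate 3 turned, and an error term for a pool made of 5 mussels, which was chosen after seeing the data.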

Additional observations from a re-analysis of the deposited data

How the results depend on the processing

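The count of 39 called probes at 200 nM stayed within 1.5 times with scale normalization (43), with a filter on dim probes (44) and without 100 nM replicate 3 (28). It was 61 without background subtraction, 90 with plain subtraction, 78 with print-tip loess, 20 with median centring (16 higher, 4 lower), 108 in the deposited ratios, 65 with the 200 nM mussels fitted alone and 120 when replicate 3 of 50 nM had its sign turned. With the array as unit and mussel as a random block it was 164, on arrays A alone 0, on arrays B alone 3, with the pool's error added (chosen after seeing the data) 0, and 7 by one-class SAM at a false discovery rate of 0.01, all higher. SAM used the mussel means of the values computed here and all their sign flips, so it did not repeat the authors' test. Leaving out 1 mussel gave 0 to 97 calls, with 72, 6 and 97 without replicate 1, 2 or 3 of 50 nM, 11, 25 and 28 without those of 100 nM and 0, 1 and 0 without those of 200 nM. Where limma called 0, unadjusted p under 0.05 were still found for 256 and 250 probes without replicate 1 or 3 of 200 nM, 259 on arrays A and 208 with the pool's error. The cause of these differences was not tested.

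Small HSP24.1, HSP70 and HSP90 (Myt01-016G09) were called in 17 of 19 alternatives that kept all 3 mussels of 200 nM, not on arrays A alone or with the pool's error. SQSTM1 was called in 15 and INO80 in 10, Myt01-002D04 in 8 and Myt01-020E10 in 5. Among probes that did not pass, GADD45 gamma passed in 10 of the 19 (adjusted p 0.00272 to 0.245 in limma), GSTpi1 in 8 (0.00373 to 0.258) and metallothionein 10B in 8 (0.00225 to 0.250), and 42 of 96 named probes passed in none.

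No called probe changed direction. Myt01-011B08 was 0.026 with print-tip loess, 0.063 with median centring, 0.081 on arrays B and -0.22 to 0.14 with a mussel left out. Myt01-012F09 and Myt01-014H09 were 0.15 and 0.17 on arrays A, Myt01-018G06 was -0.044 without subtraction and -0.16 to 0.28 with a mussel left out, and Myt01-020G06 at 200 nM was -0.61 on arrays B, -0.000281 to 0.23 with a mussel left out, and -0.023 to 0.20 so against 50 nM.

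List medians moved by more than the SD between mussels as follows. Without subtraction they were 0.99 for chaperones, -0.31 for cilia, -0.19 for collagen and byssus, 0.25 for cell cycle, 0.28 for secretion, -0.42 for haemocyte, -0.18 for foot and -0.43 for ciliated epithelium markers. With plain subtraction collagen had -0.25, cell cycle 0.28, secretion 0.33, haemocytes -0.46, foot -0.23 and ciliated epithelium -0.49. In the deposited ratios cilia had -0.41, collagen -0.28, secretion 0.30, haemocytes -0.45, foot -0.22 and ciliated epithelium -0.52, and with median centring collagen had -0.36 and secretion 0.47. On arrays A they were 0.22 for ribosomal proteins, -0.40 for nuclear respiratory genes, -0.35 for collagen, 0.22 for cell cycle, 0.41 for secretion, -0.64 for haemocytes, -0.23 for foot and -0.83 for ciliated epithelium, and on arrays B 0.48, -0.082 and -0.20 for the first 3, 0.025 for chromatin, -0.43 for haemocytes and -0.50 for ciliated epithelium. With a mussel left out chaperones had 1.00 to 1.25, collagen -0.39 to -0.36, chromatin -0.28 to -0.063 and foot markers -0.34 to -0.23. Chromatin, muscle and gonad lists were the only ones whose median changed sign.

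The deviations of same-numbered mussels from their dose means correlated at 0.15, -0.10 and 0.11 between 200 and 50 nM. Between 200 and 100 nM the correlations were 0.02, -0.09 and 0.02. With 3 mussels per dose, and replicate 3 of 50 nM among them, these values do not settle whether the numbers pair the mussels. With a replicate block in limma 0 probes passed between 200 and 50 nM (smallest adjusted p 0.238, 201 probes at an unadjusted p under 0.05) or between 200 and 100 nM (0.815, 108 probes). The other alternatives run there also gave 0, with 73 to 233 probes at an unadjusted p under 0.05. The number of arrays limits the precision, with 3 mussels and 1 pool.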
